A study of Mus musculus with 4 samples.

Results

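Gatm encodes glycine amidinotransferase, the enzyme that starts creatine synthesis by moving the amidino group of arginine onto glycine and releasing ornithine. It is described here with 9 genes chosen by role. Gamt, Slc6a8 and Ckb make, import and use creatine, and Slc7a1, Arg2, Oat, Odc1, Srm and Sms import or use arginine, ornithine and the polyamines made from ornithine. These 10 genes, of 23480 gene identifiers in each library, were found by pairing the deposited Entrez identifiers with mouse symbols, and all 10 were present. Gatm was chosen for its difference in the comparison reported here, and that comparison was already known when the other 9 were listed, so the values of all 10 are given as a description.

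The study sequenced RNA of mouse T cells in 4 libraries, 2 labelled Th9 condition and 2 labelled Th9+TLA1 condition. Th9 cells are a helper T cell type named for interleukin 9, and TLA1 is read here as TL1A, the TNF superfamily cytokine named in the series title. The sources used here do not give the agents and doses of the Th9 condition, which both groups share, nor the genotype, strain, age or culture time. The labels do not tie replicates to different animals or cultures, so errors and p-values reflect only how these libraries vary, and that variation may be technical. Reads counted in genes came to between 2979482 and 4041633 per library, and values are given as CPM, which sets every library to an equal total of such reads.

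Creatine is a store of high-energy phosphate. GATM makes guanidinoacetate, GAMT methylates it to creatine with S-adenosylmethionine as donor, and creatine kinases such as CKB charge and discharge creatine at the cost or gain of ATP. The ornithine that GATM releases is also the product of arginase and the substrate of ornithine decarboxylase, which opens the path to putrescine, spermidine and spermine. Activated T cells are known to draw on arginine and on polyamines when they grow.

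With TL1A, Gatm RNA was several times more abundant, while Gamt RNA, for the next enzyme of the same short pathway, had at most 14 reads in any library. The creatine transporter gene Slc6a8 was also near 0, and of the creatine kinase genes only Ckb was high enough to be tested. On the ornithine side, Oat, Odc1 and Srm had nearly the same levels in both groups. Sms, for spermine synthase, had the largest difference in the other direction among the tested members.

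The stretches before the start sites of Gatm and Sms, the tested members with the largest difference each way, are shown because they are the DNA next to where transcription starts. They are the 250 bases upstream of the RefSeq start on GRCm38.p6, the assembly of mm10, printed 5′ to 3′ on the strand of the gene. Capitals mark matches, on either strand, to any of 5 short motifs. Gatm lies on the minus strand with its stretch at chr2:122611278-122611527, and Sms on the minus strand with the outer of its 2 listed starts at chrX:157492288-157492537.
Gatm: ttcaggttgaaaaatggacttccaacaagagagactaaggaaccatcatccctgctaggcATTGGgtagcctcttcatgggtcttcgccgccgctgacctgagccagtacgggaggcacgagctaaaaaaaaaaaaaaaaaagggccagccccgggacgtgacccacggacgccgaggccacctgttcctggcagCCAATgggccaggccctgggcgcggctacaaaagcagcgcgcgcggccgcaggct
Sms: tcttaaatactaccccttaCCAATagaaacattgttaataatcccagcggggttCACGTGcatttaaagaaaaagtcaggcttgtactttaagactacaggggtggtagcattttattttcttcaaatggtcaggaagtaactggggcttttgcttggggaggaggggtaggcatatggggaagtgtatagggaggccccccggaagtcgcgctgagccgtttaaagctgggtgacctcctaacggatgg

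The motifs searched were the TATA box TATAAA, the CCAAT box CCAAT, the AP-1 site TGANTCA, to which BATF factors are known to bind with their partners, the E-box CACGTG and the STAT site TTCNNNGAA. Of 32851 such stretches in the RefSeq table, 12.4%, 33.8%, 6.75%, 6.02% and 7.02% held them, in that order. No matches overlapped each other in the stretches printed. Gatm had 2 CCAAT matches, and the one on the gene's strand ended 50 bases before the start. Sms had 1 CCAAT match and 1 E-box, which ended 226 and 190 bases before that start. Entries were found for 7 of the 10 members, and Slc6a8, Arg2 and Srm were without one. In the others, Ckb held 2 CCAAT matches and 1 TATA box ending 22 bases before the start, Oat held 2 CCAAT matches, and the outer of 2 Slc7a1 stretches held 1 AP-1 match. The inner Slc7a1 stretch held 1 TATA box and 1 STAT match. None of the 5 motifs was found for Gamt, Odc1 or the inner Sms start. A match is a description of the letters, and nothing in these files measures binding.

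Gatm (Entrez 67092, chromosome 2, 122594473 to 122611277 of mm10) had 283 and 353 CPM in the Th9 libraries and 1666 and 1914 CPM with TL1A, resting on 1142, 1117, 4964 and 5897 reads. The groups lay far apart, and each replicate pair was close together. The group means were 318 ± 49.6 and 1790.0 ± 175 CPM (SD, n = 2 each), and the log2 fold change was 2.59 ± 0.19 (SE, limma fit over all tested genes), or 6.01-fold. Fold changes here are of CPM + 1 after scaling between libraries. With each library left out in turn the log2 fold change lay between 2.38 and 2.80. In bulk RNA, more cells of a type and more RNA per cell cannot be told apart.

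Levels of different genes were set side by side per length, as CPM per kb of the longest transcript with a RefSeq match. On that scale Gatm stood at 118 and 148 CPM per kb in the Th9 libraries, which placed it at rank 668 and 509 among 20375 genes with a length. With TL1A it stood at 697 and 801 CPM per kb, at rank 64 and 49. The gene was thus already in the upper ranks in Th9 cells, and near the top with TL1A.

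**Figure D1:**
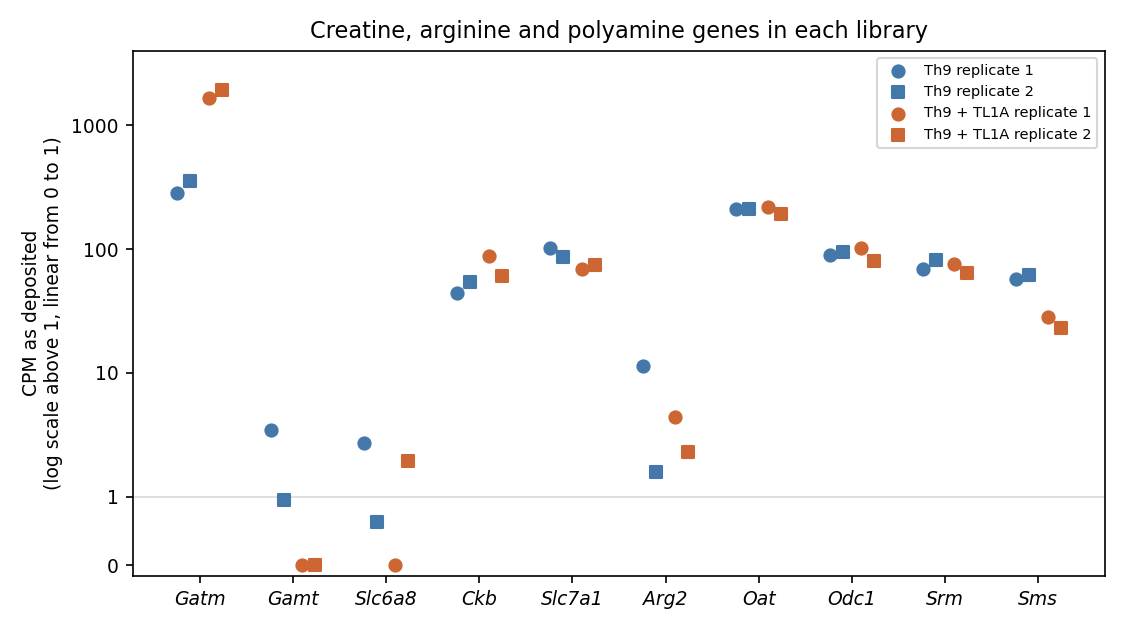
CPM of the 10 genes in each of the 4 libraries, on a vertical axis that is logarithmic above 1 CPM and linear below. Blue points are Th9, orange points Th9 with TL1A, and circles and squares are replicates 1 and 2; Gatm sits at 283 and 353 against 1666 and 1914 CPM, while Oat, Odc1 and Srm overlap between groups.

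Gamt (Entrez 14431, chromosome 10, 80258151 to 80261025) encodes guanidinoacetate methyltransferase, which completes creatine. Th9 replicates 1 and 2 held 14 and 3 Gamt reads, or 3.46 and 0.947 CPM, and neither TL1A library held any. Against a floor of 3 reads per library, which corresponded to 0.742 to 1.01 CPM, the mean was at least 2.23-fold lower with TL1A. That bound rests on Th9 replicate 1, since without it both groups are at or under the floor and no fold can be given. Floors cover counting error only, because reads of amplified cDNA are not independent molecules.

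Slc6a8 (Entrez 102857, chromosome X, 73673133 to 73682502), the gene of the creatine transporter, had 2.72 and 0.631 CPM in the Th9 libraries and 0 and 1.95 CPM with TL1A. These are 11, 2, 0 and 6 reads, and the groups overlapped. Gamt and Slc6a8 were below the filter on low counts and entered no fit. A difference in Slc6a8 was not detectable at this depth.

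Ckb (Entrez 12709, chromosome 12, 111669355 to 111672338), the gene of the brain-type cytosolic creatine kinase, had 44.5 and 54.3 CPM in the Th9 libraries and 87.9 and 60.7 CPM with TL1A. Both TL1A libraries were above both Th9 libraries, but replicate 1 with TL1A was well above replicate 2. The log2 fold change was 0.65 ± 0.28 (SE), between 0.38 and 0.92 with a library left out. Of the other creatine genes, Ckm, Ckmt1, Ckmt2 and Slc16a12 were all too low to be tested. Ckmt1, for a mitochondrial kinase, had 0.495 and 0.631 CPM in the Th9 libraries and 2.35 and 1.30 CPM with TL1A, and Ckmt2 had 0 reads in all 4. Ckb has 2 processed pseudogenes in the GENCODE annotation, and the sources used here do not say how reads shared with them were counted.

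The per-length levels show how unequal the creatine genes were. In the Th9 libraries Gatm had 3.91 and 4.00 times the level of Ckb per kb, and with TL1A 11.7 and 19.4 times. These ratios are formed within a library, so scaling between libraries does not enter them. Gamt reached at most 3.51 CPM per kb, in Th9 replicate 1, and Slc6a8 at most 0.687 CPM per kb in the same library.

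**Figure D2:**
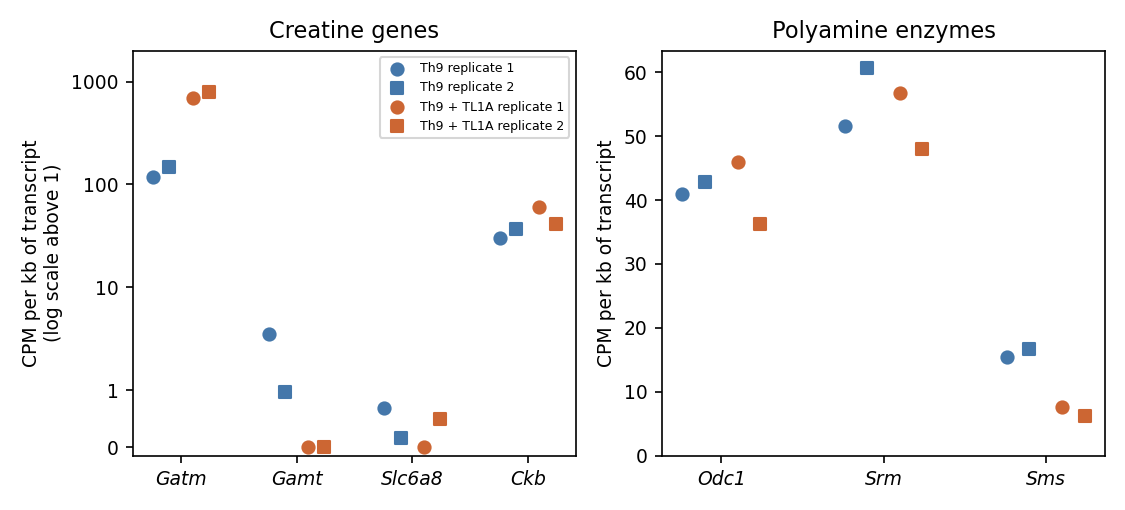
CPM per kb of transcript for the creatine genes (left, logarithmic above 1) and the polyamine enzymes (right, linear from 0), 1 point per library. Gatm lies above 100 CPM per kb in every library while Gamt and Slc6a8 lie at 0 to 3.51, and Sms is the lowest of the 3 polyamine enzymes in each library.

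Arginine enters cells mainly through cationic amino acid transporters, of which Slc7a1 (CAT1; Entrez 11987, chromosome 5, 148327410 to 148399904) is the widely expressed one. It had 102 and 86.8 CPM in the Th9 libraries and 68.5 and 74.6 CPM with TL1A, so both TL1A libraries were below both Th9 libraries by a small margin. The log2 fold change was -0.30 ± 0.22 (SE).

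Arg2 (Entrez 11847, chromosome 12, 79130788 to 79156301), the gene of mitochondrial arginase, had 11.4 and 1.58 CPM in the Th9 libraries and 4.36 and 2.27 CPM with TL1A. Its Th9 libraries straddled the TL1A libraries, with 46 and 5 reads against 13 and 7. The log2 fold change of -0.35 ± 0.81 (SE) became 0.73 without Th9 replicate 1, 0.011 without TL1A replicate 2 and -1.44 without Th9 replicate 2. Its sign is therefore not settled. Arg2 also shares 285 exonic bases with Vti1b on the opposite strand, and the cDNA kit does not mark strand. Arg1, the cytosolic arginase, was at 0 except for 2.60 CPM in TL1A replicate 2.

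Oat (Entrez 18242, chromosome 7, 132557475 to 132576398) encodes ornithine aminotransferase, which links ornithine to proline and glutamate. It had 213 and 209 CPM in the Th9 libraries and 218 and 190.2 CPM with TL1A, a log2 fold change of 0.043 ± 0.18 (SE). The TL1A libraries lay on either side of the Th9 libraries. Gatm and Oat had comparable levels per length in Th9 cells, with Gatm at 1.20 and 1.52 times Oat, and with TL1A Gatm was 6.88 and 9.06 times Oat.

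Odc1 (Entrez 18263, chromosome 12, 17544808 to 17551502), for ornithine decarboxylase, the enzyme that commits ornithine to polyamines, had 90.3 and 94.4 CPM in the Th9 libraries and 101 and 80.2 CPM with TL1A. Srm (Entrez 20810, chromosome 4, 148591513 to 148594619), for spermidine synthase, had 69.0 and 81.1 CPM in the Th9 libraries and 75.9 and 64.3 CPM with TL1A. For both genes the groups overlapped. The log2 fold changes were 0.057 ± 0.22 for Odc1 and -0.0083 ± 0.24 for Srm (SE). The signs of Oat and Odc1 turned with the scaling, and that of Srm did not: with total count scaling, which moved the median of all tested genes from -0.013 to -0.10, Oat stood at -0.049, Odc1 at -0.034 and Srm at -0.099.

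Sms (Entrez 20603, chromosome X, 157443851 to 157492287), for spermine synthase, which turns spermidine into spermine, had 57.4 and 61.9 CPM in the Th9 libraries and 28.2 and 23.0 CPM with TL1A. Both TL1A libraries were well below both Th9 libraries. The means were 59.6 ± 3.17 and 25.6 ± 3.64 CPM (SD, n = 2 each), and the log2 fold change was -1.10 ± 0.29 (SE), between -1.25 and -0.96 with a library left out. Within each library, Sms had 0.299 and 0.275 times the per-length level of Srm in Th9 cells, and 0.134 and 0.129 times with TL1A. Sms has 1 processed pseudogene copy in the annotation.

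**Figure D3:**
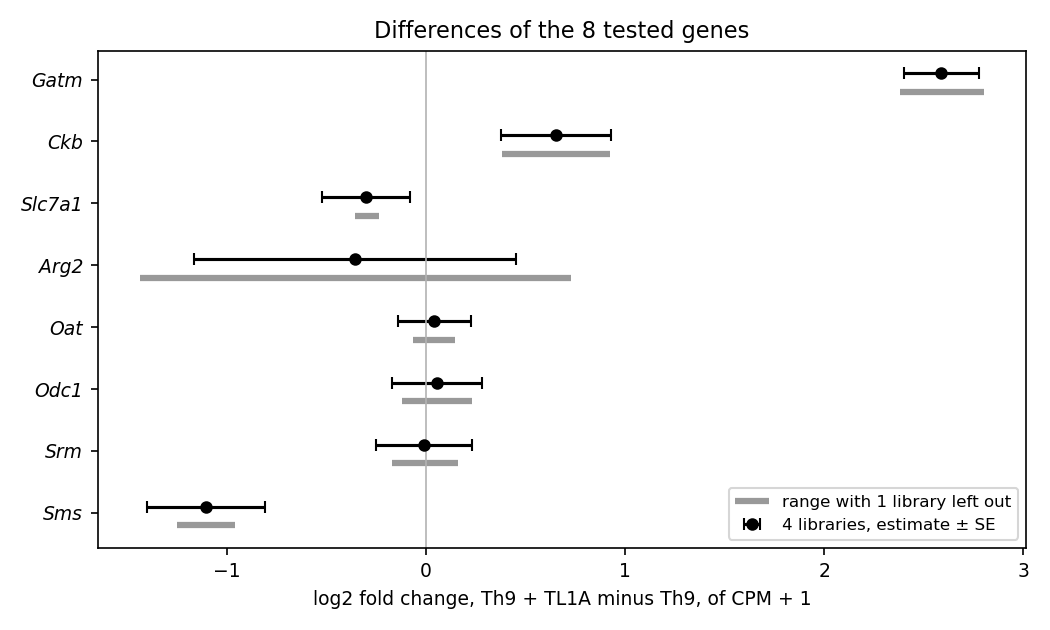
Log2 fold change of CPM + 1, Th9 with TL1A minus Th9, for the 8 genes that passed the filter, as the estimate ± SE from 4 libraries (black) and the range when 1 library is left out (grey). Gatm lies at 2.59 and Sms at -1.10, and the grey range of Arg2 crosses 0.

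Of the 10 genes, 8 passed the filter on low counts. Among these 8, 1 gene, Gatm, had a Benjamini-Hochberg adjusted p under 0.05 in the limma fit, as did 1.14% of all 10324 tested genes. Since Gatm was picked on this contrast, the count carries no weight of its own. The other 7 did not pass, Sms and Ckb included, and a p that misses the threshold does not show that the levels were equal. The groups did not overlap in 4 of the 8 (Gatm, Ckb, Slc7a1 and Sms), and in 48.1% of all tested genes.

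The surrounding pathways were read from 7 lists covering 92 further genes, of which 61 were tested. The lists were chosen with earlier results of these data known, so their counts, shares and medians carry no weight of their own. In the limma fit 0 of the 61 passed the adjusted threshold in either direction, where 0.891% of all tested genes were called higher and 0.252% lower. At an unadjusted p under 0.05 there were 18, or 29.5% of the 61, with 7 higher and 11 lower with TL1A, where 16.7% of all tested genes reached it, 8.54% higher and 8.14% lower. Of these 18, Nos2, Slc7a2 and Slc25a29 passed the filter on low counts only through the group where they were high. The median log2 fold change of the 61 was -0.086, and -0.013 over all tested genes. On the recovered reads, edgeR called 0 of them, limma voom called Castor1, and DESeq2 called Castor1 and Mat2a.

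The 2 genes nearest the threshold, Castor1 and Mat2a, belong to arginine sensing and to methyl donor supply, and each was called in 5 of 14 alternatives. Castor1 encodes a cytosolic sensor that relays arginine to the growth kinase complex mTORC1. It had 56.7 and 64.7 CPM in the Th9 libraries and 128 and 109 CPM with TL1A, with both TL1A libraries clearly above (log2 fold change 1.04 ± 0.23 SE, limma adjusted p = 0.0544, between 0.0106 and 0.264 over those alternatives). Castor2, for its partner in that sensor, had 15.3 and 12.3 CPM in the Th9 libraries and 47.0 and 25.0 CPM with TL1A (1.35 ± 0.41, adjusted p = 0.143). Mat2a encodes the enzyme that makes S-adenosylmethionine, the methyl donor that GAMT uses. It had 323 and 185 CPM in the Th9 libraries and 106 and 110.0 CPM with TL1A, so the Th9 libraries differed more between themselves than the TL1A libraries did (-1.08 ± 0.24, adjusted p = 0.0544, between 0.00228 and 0.321 over those alternatives). Mat2a shares 508 exonic bases with Particl on the opposite strand.

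In the list of arginine transport and sensing, with 10 tested genes besides Slc7a1, 3 were higher and 2 lower at an unadjusted limma p under 0.05. Of all tested genes, 8.54% were higher and 8.14% lower at that threshold. The higher genes of the list were Castor1, Castor2 and Slc7a2, and the lower ones Slc25a15 and Slc25a29. Slc7a2 and Slc25a29 passed the filter on low counts only through the group where they were high. Slc7a3, another cationic amino acid transporter gene, did not reach that unadjusted threshold. It had 15.3 and 25.6 CPM in the Th9 libraries and 6.38 and 14.0 CPM with TL1A (log2 fold change -0.90 ± 0.51 SE, limma adjusted p = 0.403). In the list of arginine and ornithine enzymes, with 8 tested genes besides the members, 1 was higher and 1 lower. The higher one, Nos2, passed the filter only through its TL1A libraries, and the lower one was Aldh18a1. Aldh18a1, for the enzyme that makes the proline and ornithine precursor from glutamate, had 373 and 383 CPM in the Th9 libraries and 198 and 305 CPM with TL1A (-0.53 ± 0.21, adjusted p = 0.243). Pycr1 and Pycrl, for enzymes of the last step to proline, had log2 fold changes of -0.30 and -0.41 (adjusted p = 0.771 and 0.650).

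Of 12 tested polyamine genes besides the members, 2 were higher and 1 lower at an unadjusted limma p under 0.05. The shares over all tested genes were 8.54% higher and 8.14% lower. Sat1, for the acetyltransferase that starts polyamine breakdown and export, had 179 and 158 CPM in the Th9 libraries and 256 and 217 CPM with TL1A (log2 fold change 0.57 ± 0.19 SE, adjusted p = 0.160). Atp13a3, for a membrane ATPase linked to polyamine uptake, had 259 and 258 CPM in the Th9 libraries and 163 and 168 CPM with TL1A (-0.55 ± 0.18, adjusted p = 0.160). The groups did not overlap in either gene, as in 48.1% of all tested genes. The replicates of Atp13a3 were close together, and neither gene passed. Azin2, for an inhibitor of the ODC antizyme, had 6.93 and 10.7 CPM in the Th9 libraries and 14.1 and 27.6 CPM with TL1A (1.19 ± 0.50, adjusted p = 0.259). Amd1, whose enzyme supplies the aminopropyl donor for Srm and Sms, was listed at 0 in all 4 libraries, as was its near-identical copy Amd2. Oaz1, the main antizyme gene, was listed at 0 to 0.649 CPM and has a pseudogene copy, so the levels of these 3 genes are uncertain.

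Glycine is the other substrate of GATM. Of 10 tested genes of glycine and serine supply, 9 had a negative log2 fold change, 3 of them at an unadjusted limma p under 0.05, and 1 a positive one. Over all tested genes, 8.14% were lower at that threshold. The list's median was -0.36, and that of all tested genes -0.013. Slc1a5, for a neutral amino acid transporter, had 435 and 272 CPM in the Th9 libraries and 225 and 219 CPM with TL1A (-0.54 ± 0.21 SE, adjusted p = 0.233). Slc1a4, for a related transporter, and Shmt1, for the cytosolic enzyme that interconverts serine and glycine, had log2 fold changes of -0.90 and -0.52 (adjusted p = 0.295 and 0.279).

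Among 10 tested genes of the methyl donor cycle, 8 had a negative log2 fold change and 2 a positive one. At an unadjusted limma p under 0.05, 3 were lower and 0 higher, against 8.14% lower and 8.54% higher over all tested genes. The list's median was -0.52, and that of all tested genes -0.013. Besides Mat2a, Cth, for the enzyme that releases cysteine from cystathionine, had 73.0 and 49.9 CPM in the Th9 libraries and 32.2 and 24.7 CPM with TL1A (-0.98 ± 0.31 SE, limma adjusted p = 0.146). Mtrr, which keeps methionine synthase active, had 65.8 and 43.6 against 34.6 and 17.9 CPM (-0.99 ± 0.37, adjusted p = 0.212), and it passed only without TL1A replicate 1 (adjusted p = 0.0353). Of 11 tested genes that methylate, convert or charge arginine in proteins, Rars2, for mitochondrial arginyl-tRNA synthetase, had 57.2 and 60.3 against 18.5 and 31.5 CPM (-1.16 ± 0.33, adjusted p = 0.124). Prmt2, for an arginine methyltransferase, and Padi2, for a peptidylarginine deiminase, had log2 fold changes of 0.90 and 0.65 (adjusted p = 0.274 and 0.506). The sign of Padi2 rests on 1 library, since it stood at -0.039 without Th9 replicate 1 and at 1.35 without Th9 replicate 2.

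**Figure D4:**
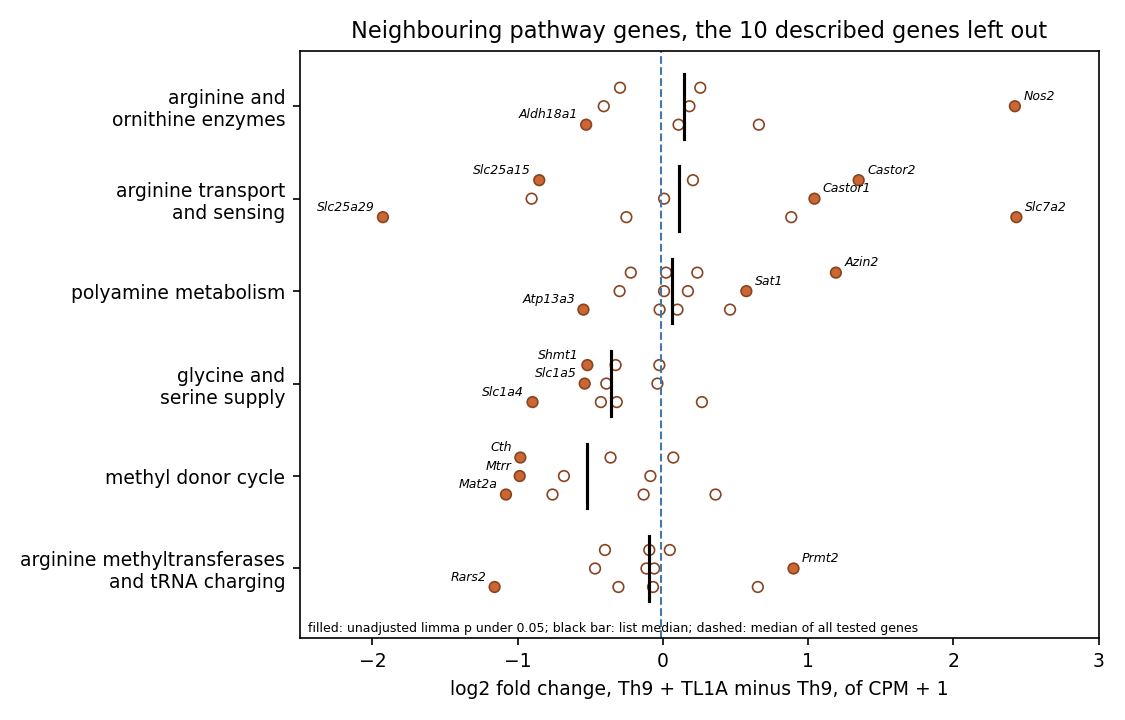
Log2 fold change of CPM + 1, Th9 with TL1A minus Th9, of the 61 tested genes of the neighbouring pathways by list, the 10 described genes left out; filled points had an unadjusted limma p under 0.05, black bars are list medians and the dashed line is the median of all tested genes. Most genes of the methyl donor list (median -0.52) and the glycine list (median -0.36) lie to the left of the dashed line, and none of the points passed the adjusted threshold.

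Tested genes whose pattern over the 4 libraries was most like that of Gatm were found by Euclidean distance. It was taken between log2 values of CPM + 1 after scaling between libraries, each centred on the gene's own mean. Predicted gene models, named Gm plus digits or ending in Rik, and identifiers without a symbol were left out. The 3 nearest of the genes kept were Frmd4b at a distance of 0.0685, Alpk2 at 0.124 and Trim13 at 0.227. Frmd4b had 6.19 and 8.21 CPM in the Th9 libraries and 43.0 and 46.4 CPM with TL1A. Alpk2 had 22.3 and 31.3 CPM, then 136 and 165 CPM, and Trim13 0.990 and 1.26 CPM, then 8.73 and 11.0 CPM. Trim13 lay close to the floor of 3 reads in the Th9 libraries, which was 0.742 and 0.947 CPM. The added 1 CPM understates the change of so low a gene. With 4 libraries in 2 groups, likeness mostly means a difference of like size on the scale of log2(CPM + 1).

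The libraries carried T cell markers throughout. All 8 measured T cell markers had reads in every library, with a summed level of 2767 and 3170 CPM in the Th9 libraries and 3703 and 3515 CPM with TL1A. Macrophages and monocytes, which can express arginase, had almost no marker reads: Lyz2, Csf1r, Cd14 and Fcgr1 were at 0 in all 4 libraries, and the 7 measured markers summed to at most 2.23 CPM. All 5 mast cell and basophil markers were at 0. B cell markers moved with the groups, at 10.4 and 12.9 CPM in the Th9 libraries and 28.9 and 29.2 CPM with TL1A summed over 5 genes, with Ms4a1 and Pax5 at 0 and Cd79b alone giving 24.2 and 28.6 CPM with TL1A. Over 6 genes, dendritic cell markers summed to 5.69 and 3.16 CPM in the Th9 libraries and 15.4 and 8.76 CPM with TL1A. Zbtb46 alone gave 5.44 and 2.84 CPM, then 12.1 and 7.14 CPM, and Clec9a and Siglech were at 0. The 4 natural killer cell markers summed to at most 3.22 CPM, the 2 CD8 T cell markers to at most 13.3 CPM and the 4 epithelial markers to at most 10.4 CPM. The part of these cells in the difference in Gatm was not tested.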

How the data were processed

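Mouse T cell RNA was made into 4 cDNA libraries with a SMARTer low-input kit and sequenced on an Ion Torrent instrument, per the labels' protocols. HTSeq 0.5.4, edgeR and mm10 appear in the submitters' processing notes, and the sources used here name no aligner or annotation. The authors deposited CPM, 1 file per library. All non-zero values were whole multiples of 1 read's worth (100% within 0.01 of a read), so whole reads were recovered: 4041633 and 3167270 for Th9, 2979482 and 3081187 with TL1A. A RefSeq table of GRCm38.p6 matched 23383 of 23480 identifiers; lengths and overlaps came from GENCODE M21.

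Genes passing filterByExpr (minimum count 10) were scaled by TMM (factors 0.964 to 1.06), and log2(CPM + 1) was fitted with limma (eBayes with a trend) on the group alone. This pseudocount of 1 CPM understates the change of low genes. P-values were adjusted by Benjamini-Hochberg over all 10324 tested genes, and the fit was tested on simulated data. Printed CPM are the deposited ones. The rule for named genes took all 10 members, the pathway genes called, and the 3 genes nearest Gatm as ranked above. In a list without a call, it took the 3 genes with the largest absolute log2 fold change at a mean of at least 10 CPM. Other genes were named after their values were seen. Members and lists were chosen with earlier results of these data known. Alternatives were RLE and total count scaling, pseudocounts of 0.25 and 4 CPM, no filter and a minimum count of 30, count tests on the recovered reads (edgeR 4.0.16, DESeq2 1.42.0 and limma voom), a block for the replicate number, and each library left out. Limma was version 3.58.1 under R 4.3.3, and tables and figures used pandas 2.3.3 and matplotlib 3.10.9 under Python 3.11.15.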

Additional observations from a re-analysis of the deposited data

How the results depend on the processing

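The log2 fold change of Gatm lay between 2.50 and 2.60 over the 10 alternatives that kept all libraries and between 2.38 and 2.80 with a library left out. Gatm was called in all 10 that kept all libraries. Since it was picked on this contrast and the same libraries were refitted, these calls carry no weight of their own. None of the other tested members was called in any alternative. With a library left out, log2 fold changes lay between -0.063 and 0.15 for Oat, between -0.12 and 0.23 for Odc1 and between -0.17 and 0.16 for Srm, so their signs are not settled. Genes called over the whole table numbered 118, against 73 with total count scaling, 33 without a filter on low values, 275 with DESeq2 and between 19 and 155 with a library left out. The share of calls that were higher with TL1A was 78.0%, against 67.3% with DESeq2, 65.3% with the replicate block, 92.9% without Th9 replicate 1, 100% without Th9 replicate 2, 56.1% without TL1A replicate 1 and 52.1% without TL1A replicate 2. Pathway genes called besides the members numbered 0, against 2 with RLE scaling, 2 with a pseudocount of 4 CPM and 2 with DESeq2 (Castor1 and Mat2a each time), 1 with limma voom, and between 0 and 2 with a library left out. The log2 fold change of Padi2 lay between -0.039 (without Th9 replicate 1) and 1.35 with a library left out. The cause of these differences was not tested. With the replicate number as a block, 225 genes and 2 pathway genes (Castor1 and Mat2a) were called, and no member besides Gatm; the labels give shared numbers but no pairing, and same-numbered libraries did not deviate together (r = -0.011 across 10324 genes, which are not independent replicates). The deposited names of both replicate 2 files share a tag that the replicate 1 files lack, and what it stands for is not given. Gamt, Slc6a8 and Arg2 are limited by depth, with at most 46 reads in a library.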

Other observations

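Further genes outside the rule for named genes, chosen after their values were seen, use or move arginine or ornithine. Nos2, which encodes the inducible nitric oxide synthase, had 0.990 and 0.631 CPM in the Th9 libraries and 8.06 and 8.44 CPM with TL1A. The log2 fold change was 2.42 ± 0.69 (SE), and it did not pass (limma adjusted p = 0.127). Slc7a2, for the cationic amino acid transporter CAT2, had 0 and 1.58 CPM in the Th9 libraries and 7.38 and 7.46 CPM with TL1A (2.43 ± 0.77, limma adjusted p = 0.152). In both genes the TL1A libraries were nearly equal to each other and above the Th9 libraries. Both genes passed the filter on low counts only through the TL1A libraries, so their differences are given as a description. The mitochondrial carrier genes Slc25a15 and Slc25a29 lay on the other side, while Slc25a2 of the same list was too low to be tested. Slc25a15, for the ornithine carrier, had 62.8 and 63.8 CPM in the Th9 libraries and 25.2 and 41.9 CPM with TL1A (-0.85 ± 0.31, limma adjusted p = 0.1999). Slc25a29, for a carrier of basic amino acids, had 6.68 and 3.47 against 0.336 and 0.649 CPM (-1.93 ± 0.79, limma adjusted p = 0.254). Its TL1A libraries held 1 and 2 reads, under the floor of 3, and it passed the filter only through its Th9 libraries. In the Th9 libraries Nos2 held 4 and 2 reads and Slc7a2 0 and 5. At such counts the size of a fold change depends on the pseudocount of 1 CPM.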
